A study of Mus musculus with 6 samples.

Results

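The 10 genes described here are *Tnf*, *Ltb*, *Tnfrsf1a*, *Tnfrsf1b*, *Tnfaip3*, *Nfkbia*, *Nfkbiz*, *Nfkb2*, *Relb* and *Birc3*, which encode TNF family ligands, TNF receptors and the regulators that NF-κB induces to restrain or extend its own activity. They were taken by gene name from a table of 27202 genes, and all 10 were among the 16246 genes that passed a filter on low values (a mean of at least 10 over all libraries). RNA was sequenced from whole colonic tissue of *Nedd4l* fl/fl VillinCre mice (cKO1, cKO2 and cKO3), in which Cre under the Villin promoter removes *Nedd4l* from intestinal epithelial cells, and of littermates with the floxed alleles and no Cre (WT1, WT2 and WT3). All were 8 to 10 weeks old when 2% dextran sulfate sodium (DSS), which injures the colonic epithelium, was put in their drinking water, and all were killed after 7 days. The floxed and VillinCre lines were on a C57BL/6J background. Groups without DSS were not analysed here, so every level below is that of an injured colon. The values are normalized counts, that is, read counts divided by a size factor for each library.

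TNF binds TNFR1 and TNFR2, and receptor complexes built on adaptors and ubiquitin ligases activate the IKK kinases, which mark IκB proteins for destruction and so free NF-κB dimers to enter the nucleus. NF-κB then induces its own inhibitors, among them IκBα and A20, which close the loop, while p100 (from *Nfkb2*) and RelB form the noncanonical branch that lymphotoxin and related ligands drive. In the colon, epithelial cells, macrophages, lymphocytes and stromal cells all use this pathway, so that in whole tissue fewer cells of a type and less RNA per cell cannot be told apart.

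*Nedd4l* itself was 1241, 1271 and 1266 normalized counts in WT1, WT2 and WT3 and 476, 942 and 566 in cKO1, cKO2 and cKO3, so each cKO library lay below each WT library and cKO2 was nearest to them. Over all genes cKO2 also correlated more with the WT libraries (mean r = 0.977) than with the other cKO libraries (0.966). The latter mean includes cKO1, whose mean r was the lowest of all libraries within its genotype (0.963) and across genotypes (0.948). The value of 0.966 therefore does not by itself set cKO2 apart from cKO3. Totals in units of a library's smallest value were 14914367 to 17547270, in which *Tnf*, the lowest of the 10 genes, had 72 to 331. The 8 epithelial markers fixed for the tissue were detected. They summed to 150625 to 183627 normalized counts in cKO (lowest in cKO1) and to 164917 to 195517 in WT libraries. Of the 8, 2 had a log2 fold change of cKO over WT above 0 (50.2% of all genes). The labels do not say that each library came from a different mouse, so p-values measure the spread between these libraries, which may be technical.

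Sequences upstream of transcript starts are shown first, because κB sites next to the start are how NF-κB is known to drive its own regulators. RefSeq promoter windows of GRCm38.p6 (250 bases before and 50 after a transcript start, 300 in all) were found for 8 of the 10 genes, 11 windows in total. Both strands were searched for the κB consensus. A match was found in 6 of the 11 windows, which belong to *Ltb*, *Tnfaip3*, *Nfkbia* and *Nfkb2* (3 windows), and in 8.46% of all 32851 windows of the RefSeq table. The windows of *Tnf*, *Tnfrsf1a*, *Tnfrsf1b* and *Birc3* and the other window of *Tnfaip3* held no match to the consensus, and *Nfkbiz* and *Relb* had no window. The stretches below run 5′ to 3′ on the gene's strand, with the matches in capitals. They are *Nfkbia* at chr12:55492648-55492897 (minus strand), *Nfkb2* at chr19:46304487-46304736 (plus strand) and *Ltb* at chr17:35194257-35194438 (plus strand). For *Tnfaip3* they are 30 bases around each match, at chr10:19015516-19015545 and chr10:19015411-19015440 (minus strand). Both *Tnfaip3* stretches are upstream of a RefSeq transcript start but lie inside the gene as listed (chr10:19000910-19015657). Matches that overlap on both strands are capitalised as 1 stretch.
Nfkbia: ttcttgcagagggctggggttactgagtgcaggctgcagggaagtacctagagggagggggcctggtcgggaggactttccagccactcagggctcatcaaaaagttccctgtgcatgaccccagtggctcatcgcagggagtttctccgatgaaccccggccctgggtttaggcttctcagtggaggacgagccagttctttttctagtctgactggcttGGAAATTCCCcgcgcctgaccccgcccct
Nfkb2: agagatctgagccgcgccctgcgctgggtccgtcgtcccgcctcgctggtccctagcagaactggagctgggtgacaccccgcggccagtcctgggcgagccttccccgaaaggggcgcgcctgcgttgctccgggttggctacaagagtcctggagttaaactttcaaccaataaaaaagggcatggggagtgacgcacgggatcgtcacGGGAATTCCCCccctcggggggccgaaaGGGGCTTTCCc
Ltb: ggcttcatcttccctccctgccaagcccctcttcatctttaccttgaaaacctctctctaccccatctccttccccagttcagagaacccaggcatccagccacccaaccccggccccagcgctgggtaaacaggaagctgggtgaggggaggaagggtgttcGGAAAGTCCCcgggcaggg
Tnfaip3, distal: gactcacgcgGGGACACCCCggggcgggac
Tnfaip3, proximal: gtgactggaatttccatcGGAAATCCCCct
Counted from the transcript start, the capitals begin at position -29 in *Nfkbia*, at -39 and -11 in *Nfkb2*, at -87 in *Ltb* and at -125 and -12 in *Tnfaip3*. The other 2 *Nfkb2* windows overlap each other and hold 2 further matches, 1 of them in both windows. A match is a string of letters and no measure of binding.

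All 10 genes were a little higher in cKO mice by their fitted means, and none passed an adjusted p of 0.05 (limma, adjusted over all 16246 genes; lowest 0.317, for *Tnfrsf1b*), where 0 genes of the whole table did (0.0%), although 1122 were higher and 1151 lower at an unadjusted p under 0.05. At an unadjusted p under 0.05, *Tnfrsf1b* and *Tnfaip3* were higher in cKO mice (2 of 10, against 6.91% of all genes) and 0 were lower (against 7.08%). The fitted log2 fold change of cKO over WT was above 0 for 10 of 10 (50.2% of all genes), from 0.096 to 0.62, with a median of 0.18 beside 0.0013 over all genes. The median was 0.068 without cKO1 and 0.29 without cKO2. The sign of the log2 fold change turned for *Ltb*, *Nfkbiz*, *Nfkb2* and *Birc3* when a single library was left out. For 0 of 10 did the groups separate, whereas they did for 21.4% of all genes.

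**Figure D1:**
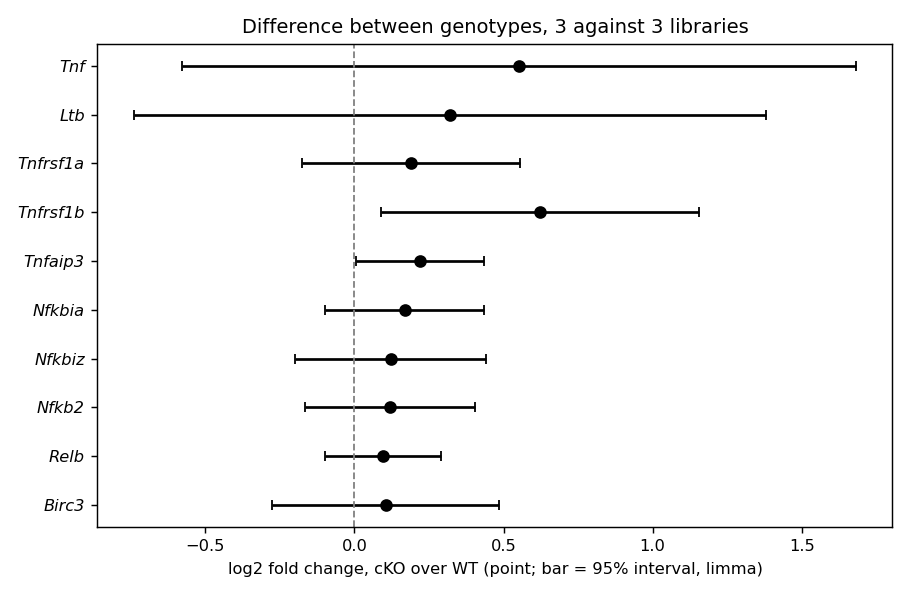
Log2 fold change of cKO over WT (horizontal axis) for each of the 10 genes (vertical axis), fitted by limma on log2(normalized count + 1), with bars for the 95% interval. Every point lies above 0, and the intervals of *Tnfrsf1b* and *Tnfaip3* alone leave out 0, before adjustment over all genes.

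Of the ligands, *Tnf* (ENSMUSG00000024401; chr17:35199381-35202007 of GRCm38, minus strand), the founding cytokine of the family, was 101, 90.9 and 115 normalized counts in WT1, WT2 and WT3. In cKO1, cKO2 and cKO3 it was 317, 79.6 and 132. cKO1 stood far above the other libraries, cKO3 was a little above the WT range, and cKO2 was the lowest of all. Its mean was 176 ± 125 (SD, n = 3) in cKO and 102 ± 12.0 in WT mice. cKO over WT was 0.55 on the log2 scale (standard error, SE, 0.47, 95% interval -0.58 to 1.68, adjusted p = 0.613). It was 0.012 without cKO1 and 1.00 without cKO2 (adjusted p = 0.224), so these libraries decided its size.

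*Ltb* (ENSMUSG00000024399; chr17:35194439-35196320, plus strand), lymphotoxin β, which forms the membrane-bound lymphotoxin that signals through the noncanonical branch, lies near *Tnf* on the chromosome. Its normalized counts were 124, 247 and 228 in WT1, WT2 and WT3 and 429, 203 and 156 in cKO1, cKO2 and cKO3. Here too cKO1 was the highest library, while cKO2 and cKO3 lay inside the WT range. cKO over WT was 0.32 on the log2 scale (SE 0.44, adjusted p = 0.761), and without cKO1 it was -0.10 (adjusted p = 0.921). Neither ligand therefore differed beyond the spread of the libraries, and both intervals are wide (-0.58 to 1.68 for *Tnf* and -0.74 to 1.38 for *Ltb*).

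Other markers moved with cKO1. The 6 neutrophil markers summed to 9235 normalized counts in cKO1 and to 2967 to 3233 in the other 5 libraries. Of the 6, 5 had a log2 fold change above 0 (50.2% of all genes). At an unadjusted p under 0.05, 2 were higher and 1 was lower (6.91% and 7.08% of all genes). The 6 B cell markers summed to 4700 in cKO1, 2259 in cKO2 and 1764 in cKO3, and to 1327 to 3186 in WT libraries. The 6 T cell markers summed to 522 to 639 in cKO and to 488 to 709 in WT libraries. For the 4 fibroblast markers the sums were 15391 in cKO1 and 7032 to 7472 in the other cKO libraries, above the WT range of 3946 to 6615. The 4 endothelial markers summed to 2363 in cKO1 and to 890 to 1380 in the other 5 libraries. The sum of the 4 markers of ILC3, innate lymphoid cells that are known to express *Ltb*, went the other way. It was 432 to 922 in cKO (lowest in cKO1) and 1293 to 1829 in WT libraries. Of the 2 ILC3 markers that passed the filter, 1 was above 0 in log2 fold change. The other was lower at an unadjusted p under 0.05 (7.08% of all genes). No marker of these lists was at 0 in all libraries, and their part in the ligand levels and in that of *Tnfrsf1b*, also highest in cKO1, was not tested.

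**Figure D2:**
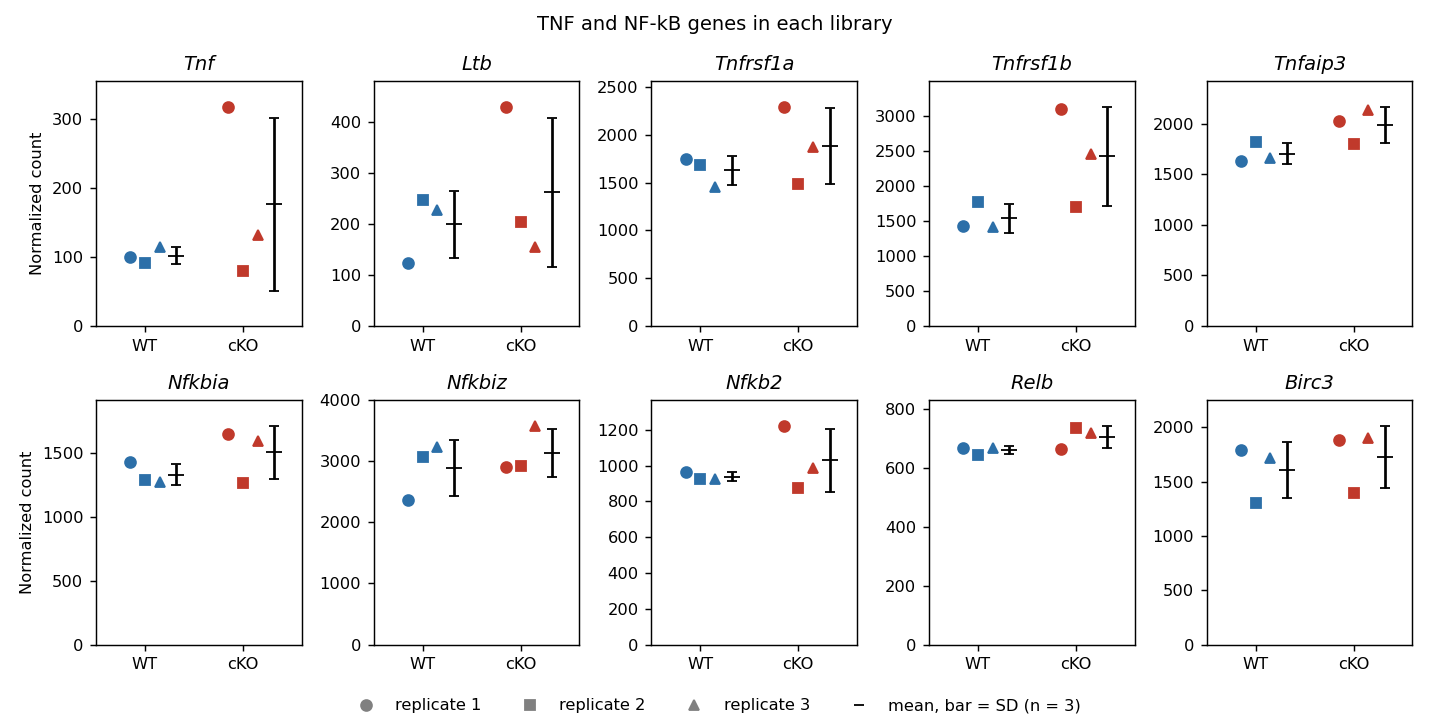
Normalized count (vertical axis, from 0) of each of the 10 genes in WT and cKO libraries, with the replicate number shown by the marker shape and the mean and SD (n = 3) beside the points. cKO1 stands apart for *Tnf* at 317 and *Ltb* at 429, and no gene has all cKO points above all WT points.

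Of the receptors, *Tnfrsf1b* (ENSMUSG00000028599; chr4:145213463-145246870, minus strand) encodes TNFR2, which lacks a death domain and is carried mainly by immune and endothelial cells. It was 1420, 1773 and 1408 normalized counts in WT1, WT2 and WT3. In cKO1, cKO2 and cKO3 it was 3098, 1699 and 2455. cKO1 and cKO3 lay above the WT range, and cKO2 lay inside it, below WT2. The cKO mean was 2417 ± 700 (SD, n = 3) against a WT mean of 1534 ± 207. On the log2 scale the difference was 0.62 with an SE of 0.22 (95% interval 0.089 to 1.15, unadjusted p = 0.0284, adjusted p = 0.317, limma). Without cKO2 it was 0.85 (adjusted p = 0.0524) and without cKO1 0.42 (adjusted p = 0.422). When limma weighted the libraries by their fit, which gave cKO3 a weight of 4.39 and the others 0.414 to 1.34, it was 0.68 with an adjusted p of 0.0494. With these weights 262 genes of all 16246 were higher and 369 lower at an adjusted p under 0.05, against 0 in the main fit.

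*Tnfrsf1a* (ENSMUSG00000030341; chr6:125349362-125362484, plus strand) encodes TNFR1, the death domain receptor that most cells carry. It was 1750, 1681 and 1457 normalized counts in WT1, WT2 and WT3 and 2287, 1487 and 1873 in cKO1, cKO2 and cKO3. The order of the cKO libraries was that of *Tnfrsf1b*, with cKO2 inside the WT range, but the log2 fold change was smaller at 0.19 (SE 0.16, adjusted p = 0.596). The ratio of *Tnfrsf1b* to *Tnfrsf1a* within a library, which does not depend on the size factors, was 0.812, 1.05 and 0.966 in WT1, WT2 and WT3. In cKO1, cKO2 and cKO3 the ratio was 1.35, 1.14 and 1.31. All 3 cKO ratios lay above all 3 WT ratios, cKO2 included. The cKO ratios averaged 1.27 ± 0.112 (SD, n = 3) and the WT ratios 0.944 ± 0.123, a log2 difference of 0.43 that stayed between 0.33 and 0.52 when any 1 library was left out. The exact permutation test gave a two-sided p of 0.10, the smallest that 3 against 3 can give, and 0.30 after adjustment over the 3 ratios computed. The 9 monocyte and macrophage markers summed to 11043 to 12399 normalized counts in cKO and 6790 to 10037 in WT libraries. Of these markers 9 of 9 were above 0 in log2 fold change (50.2% of all genes). At an unadjusted p under 0.05, 4 were higher (6.91% of all genes). Their part in the receptor ratio was not tested.

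**Figure D3:**
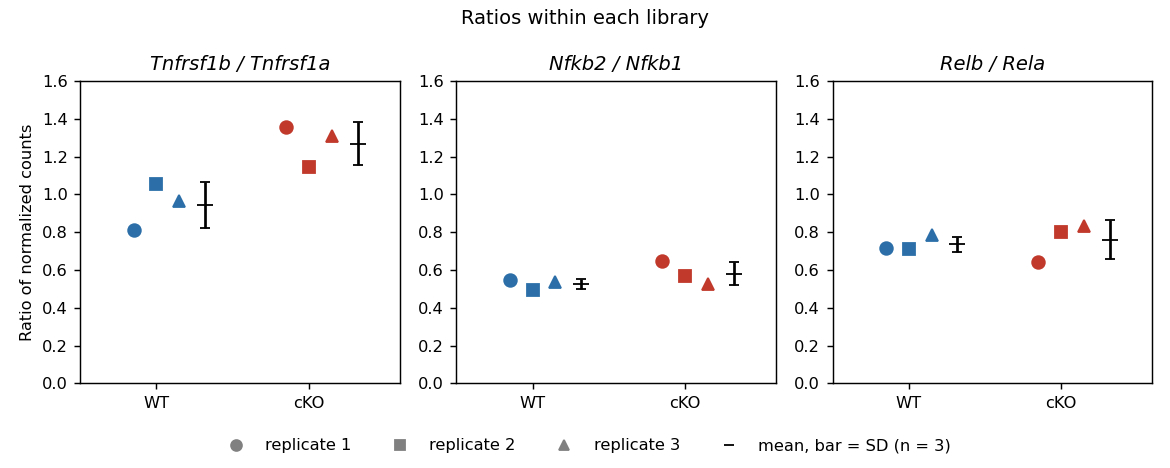
Ratio of the normalized counts of paired genes within each library (vertical axis, from 0) for WT and cKO, with the mean and SD (n = 3) beside the points. The *Tnfrsf1b* to *Tnfrsf1a* ratio lies at 1.14 to 1.35 in cKO and 0.812 to 1.05 in WT libraries, while the other ratios overlap.

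Of the inhibitors and IκB proteins, *Tnfaip3* (ENSMUSG00000019850, chr10:19000910-19015657, minus strand) encodes A20, a ubiquitin-editing enzyme that shuts off signaling from the TNF receptor complex. It was 1631, 1824 and 1658 normalized counts in WT1, WT2 and WT3 and 2027, 1795 and 2140 in cKO1, cKO2 and cKO3. cKO1 and cKO3 were above every WT library, and cKO2 was just below WT2. The cKO mean was 1988 ± 176 (SD, n = 3) against a WT mean of 1704 ± 105, which is 0.22 on the log2 scale with an SE of 0.093 (unadjusted p = 0.0462, adjusted p = 0.352, limma). Its unadjusted p was under 0.05 in 7 of 14 alternative settings, and its log2 fold change ran from 0.16 to 0.31 over them.

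*Nfkbia* (ENSMUSG00000021025; chr12:55489410-55492647, minus strand) encodes IκBα, the inhibitor that holds canonical NF-κB in the cytoplasm. It was 1428, 1287 and 1276 normalized counts in WT1, WT2 and WT3 and 1652, 1267 and 1596 in cKO1, cKO2 and cKO3. Again cKO1 and cKO3 were above the WT range, and cKO2 was the lowest library. cKO over WT was 0.17 on the log2 scale (SE 0.12, 95% interval -0.097 to 0.44, adjusted p = 0.522). *Nfkbiz* (ENSMUSG00000035356; chr16:55811375-55838899, minus strand) encodes IκBζ, a nuclear IκB protein that epithelial cells induce and that acts on a subset of NF-κB targets. It was 2368, 3071 and 3232 in WT1, WT2 and WT3 and 2903, 2913 and 3578 in cKO1, cKO2 and cKO3, so that only cKO3 lay outside the WT range. Its log2 difference of 0.12 (SE 0.14, adjusted p = 0.706) was -0.016 without WT1.

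Of the subunits of the noncanonical branch, *Nfkb2* (ENSMUSG00000025225; chr19:46304737-46312090, plus strand) was 966, 924 and 923 normalized counts in WT1, WT2 and WT3 and 1222, 877 and 988 in cKO1, cKO2 and cKO3. The WT libraries were tight (coefficient of variation 2.62%), and the cKO libraries fell on both sides of them (17.1%). cKO over WT was 0.12 on the log2 scale (SE 0.12, adjusted p = 0.671) and -0.010 without cKO1. Its exons share up to 531 bases with genes on the other strand in GENCODE M21, *Psd* among them, and with a library kit that does not mark strand such reads cannot be told apart. *Relb* (ENSMUSG00000002983; chr7:19606217-19629438, minus strand), the partner of the processed p100, was the steadiest of the 10 genes. It was 669, 644 and 667 in WT1, WT2 and WT3 and 664, 735 and 718 in cKO1, cKO2 and cKO3. It was the one gene with cKO2 as its highest library, and its log2 difference was 0.096 (SE 0.084, 95% interval -0.099 to 0.29, adjusted p = 0.619).

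The ratio of *Nfkb2* to *Nfkb1*, the subunit gene of the canonical branch, was 0.527 ± 0.0269 (SD, n = 3) in WT and 0.581 ± 0.0600 (SD, n = 3) in cKO libraries. The log2 difference was 0.14 (exact permutation test, two-sided p = 0.30, adjusted 0.45). For *Relb* to *Rela* the ratios were 0.737 ± 0.0403 and 0.760 ± 0.102 (SD, n = 3), with a log2 difference of 0.038 (exact permutation test, two-sided p = 0.80). Neither ratio separated the genotypes.

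*Birc3* (ENSMUSG00000032000; chr9:7848699-7873186, minus strand) encodes cIAP2, a ubiquitin ligase of the TNF receptor complex and a classical NF-κB target. It was 1791, 1308 and 1722 normalized counts in WT1, WT2 and WT3 and 1885, 1399 and 1903 in cKO1, cKO2 and cKO3. Replicate 2 was the lowest in each genotype, and the ranges overlapped over most of their length. cKO over WT was 0.10 on the log2 scale (SE 0.16, adjusted p = 0.791) and -0.037 without WT2.

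The cKO libraries differed among themselves. cKO1 held the highest value of 6 genes (*Tnf*, *Ltb*, *Tnfrsf1a*, *Tnfrsf1b*, *Nfkbia* and *Nfkb2*), cKO3 of 3 (*Tnfaip3*, *Nfkbiz* and *Birc3*) and cKO2 of *Relb*. The median deviation of the 10 genes from their WT means was 0.35 on the log2 scale in cKO1, -0.022 in cKO2 and 0.26 in cKO3, and 10, 5 and 9 genes were above their WT mean there. Over all tested genes these medians were within 0.016 of 0. Without cKO2, 5 of 10 genes were at an unadjusted p under 0.05 (8.94% of all genes were higher at that level) and 7 separated the groups (37.6% of all genes), with 0 at an adjusted p under 0.05. Without cKO1, 1 was at an unadjusted p under 0.05, 1 separated the groups (5.27% of all genes were higher and 30.8% separated the groups), and 8 of 10 had a log2 fold change above 0.

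**Figure D4:**
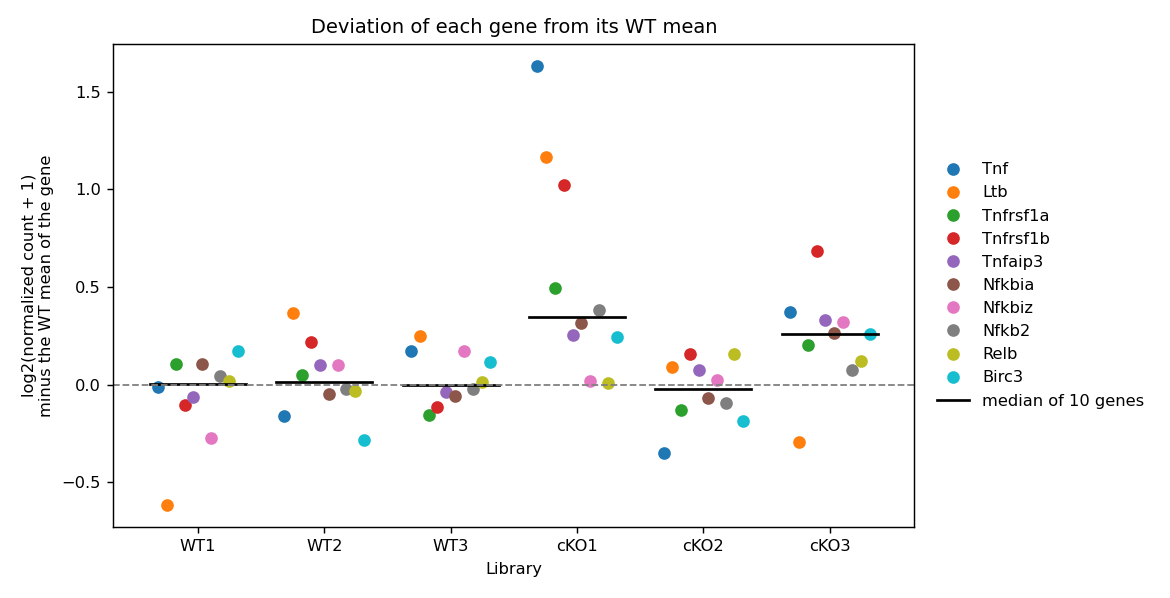
Deviation of log2(normalized count + 1) from the WT mean of each gene (vertical axis) in the 6 libraries (horizontal axis), 1 point per gene and a line at the median of the 10 genes. The median is 0.35 in cKO1, 0.26 in cKO3 and -0.022 in cKO2, which sits with the WT libraries.

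Levels of different genes were compared per kilobase of the gene length in the table. In WT libraries *Nfkbia* was the highest (826 normalized counts per kilobase, 793 to 887), followed by *Tnfrsf1a* (629), *Nfkbiz* (576), *Tnfrsf1b* (402), *Birc3* (321), *Nfkb2* (285), *Tnfaip3* (236), *Relb* (170), *Ltb* (132) and *Tnf* (62.3, 55.4 to 70.1). The ranges over the WT libraries overlapped between *Tnfrsf1a* and *Nfkbiz* and between *Birc3* and *Nfkb2*, and were separate for the other neighbours. *Nfkb2* is listed with 3289 bases but has 4584 exonic bases in GENCODE M21, while the other 9 lengths are identical in both. By the longer length *Nfkb2* was at 205 (201 to 211), between *Tnfaip3* and *Relb* and separate from both. With either length, *Tnf* and *Ltb* were the lowest of the 10 genes per kilobase. The coefficient of variation was largest for *Ltb* among WT libraries (32.9%) and for *Tnf* among cKO libraries (70.8%).

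The profiles most like that of *Tnf* over the 6 libraries, by the root-mean-square difference of centred log2 values among 11879 protein-coding genes, were those of *Cd274* (0.121), which encodes PD-L1, *Pygl* (0.136), a glycogen phosphorylase, and *S1pr1* (0.145), a sphingosine-1-phosphate receptor, where the median gene was at 0.670. *Cd274* was 289, 272 and 405 normalized counts in WT1, WT2 and WT3 and 900, 273 and 428 in cKO1, cKO2 and cKO3, with the same high library. For *Ltb* the nearest were *Stra6* (0.120), *Cpxm1* (0.152) and *Grap* (0.167; median 0.580). For *Tnfaip3* they were *Cdca3* (0.032), *Arl8a* (0.041) and *Col4a3bp* (0.042; median 0.221). None of these 9 genes passed an adjusted p of 0.05 in the comparison of the genotypes.

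The rest of the pathway was read from 7 lists of 131 genes, of which 119 were tested. Of these, 91 were higher and 28 lower in cKO libraries by log2 fold change, 0 passed an adjusted p of 0.05, and at an unadjusted p under 0.05 there were 21 higher and 3 lower. Over all genes tested, 50.2% were above 0, and 6.91% were higher and 7.08% lower at that level. On leaving out 1 library other than cKO2 the 21 became 15 to 17 (4.91% to 5.99% of all genes). Without cKO2, 38 were higher (8.94% of all genes) and 4 passed the adjusted threshold (122 of 16256 genes). No test was run over the lists, which were written with earlier results of these data known.

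Among 12 other TNF superfamily ligands the median log2 fold change was 0.39, which was 0.099 without WT1 and 0.15 without cKO1. Of these ligands 1 of 12 was higher at an unadjusted p under 0.05 (6.91% of all genes). It was *Tnfsf14* (LIGHT), with 10.9 to 17.1 normalized counts in WT and 19.6 to 41.2 in cKO libraries (log2 fold change 0.97). *Tnfsf13b* (BAFF), a B cell survival factor, was at 0.34 and *Tnfsf10* (TRAIL), a death ligand, at 0.46. Among 25 other receptors the median was 0.29, and 3 were higher at that level (6.91% of all genes). There was 1 without WT2 (4.91% of all genes) and 7 without cKO2 (8.94%). For 3 of 25 all cKO libraries were above all WT libraries, as they were for 10.5% of all genes. The 3 receptors were *Tnfrsf14*, the receptor for LIGHT (439 ± 25.2 in WT and 585 ± 49.2 in cKO, SD, n = 3, log2 fold change 0.41, adjusted p = 0.215), the death receptor *Fas* (0.67) and *Tnfrsf11b* (0.86), the decoy receptor osteoprotegerin.

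Medians nearer 0 were found for the signaling core. Among 21 adaptors and genes of the death branch the median log2 fold change was 0.084, which was 0.049 without WT1 and 0.023 without cKO1. There 1 of 21 was higher and 2 of 21 were lower at an unadjusted p under 0.05, against 6.91% and 7.08% of all genes. The higher gene was *Ripk3*, the necroptosis kinase (0.54). The lower genes were *Fadd*, the adaptor of death receptors (-0.28), and *Tab1*, a partner of the kinase TAK1 (-0.31). Among 10 IKK kinases and other subunits the median was 0.083 (0.019 without cKO1 and 0.13 without cKO2). *Tbk1*, at 0.22, was past the unadjusted level (1 of 10, against 6.91% of all genes). *Rel* at 0.51 and *Ikbke* at -0.20 were short of it. Among 18 other IκB proteins and negative regulators the median was 0.17. *N4bp1* (0.25), *Bcl3* (0.54), an IκB protein of the nucleus, *Tnip2* (0.30), a partner of A20, and *Cyld* were higher at an unadjusted p under 0.05 (4 of 18, against 6.91% of all genes). All cKO libraries were above all WT libraries for 6 of 18, as they were for 10.5% of all genes. The 4 at the unadjusted level became 2 without WT1 (5.99% of all genes) and 2 without cKO1 (5.27%). Without any 1 of the other libraries there were 3 or 4 (4.91% to 8.94%).

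The list of other inducible targets, such as chemokines, cytokines and adhesion molecules, had the highest median. Among 28 of them the median log2 fold change was 0.92, 25 were above 0, 11 were higher and 1 lower at an unadjusted p under 0.05 (6.91% and 7.08% of all genes), and 14 had separate groups (21.4% of all genes). *Ccl2*, the monocyte chemokine, was at 2.34 and *Ptgs2*, inducible cyclooxygenase, at 1.59, while *Ccl20*, a chemokine of the epithelium, was at -1.40. Their adjusted p was 0.169 in each case. The median of the list was 0.53 without cKO1 (27 genes tested) and 1.19 without cKO2, where 20 were higher at an unadjusted p under 0.05 (8.94% of all genes) and 4 (*Ccl2*, *Cxcl1*, *Cxcl2* and *Il1b*) passed an adjusted p of 0.05 (122 of 16256 genes). The sums of monocyte and macrophage markers and of fibroblast markers given above were higher in every cKO library than in every WT library, and that of neutrophil markers was highest in cKO1. Their part in the target levels was not tested. The medians of 0.92 and 0.18 stand side by side here, and the difference between the targets and the 10 regulators was not tested. Among 5 lymphoid tissue genes downstream of lymphotoxin the median was 0.70, with *Madcam1*, an addressin of gut endothelium, at 0.70, *Cxcl13* at 0.99 and *Cr2*, a complement receptor of B cells, at 0.65 and 0 past the unadjusted level. *Cxcl13*, which draws B cells into follicles, was 2242 normalized counts in cKO1, where *Ltb* was also highest, and 257 to 474 in the other libraries. The sums of neutrophil, B cell, endothelial and fibroblast markers were highest in cKO1 too. The part of *Ltb* or of these cells in the *Cxcl13* level was not tested. The median of these 5 genes was 0.35 without cKO1 and 0.049 without WT1, where 3 were above 0 and 2 below.

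**Figure D5:**
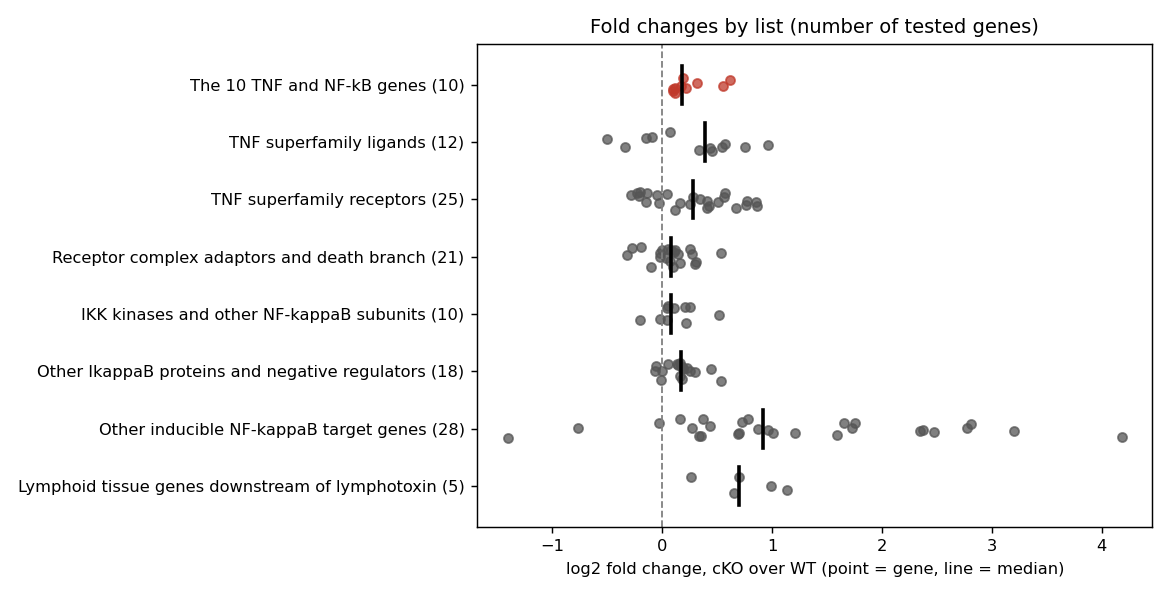
Log2 fold change of cKO over WT (horizontal axis) for the tested genes of the 10-gene set and of 7 lists, 1 point per gene and a line at each median, with the number of tested genes in brackets. The 10 genes lie between 0.096 and 0.62 around a median of 0.18, and the other inducible targets spread from -1.40 to 4.18 around a median of 0.92.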

How the data were processed

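RNA of 6 colon libraries (3 cKO and 3 WT) was analysed from 1 table. The deposited values are normalized counts, a signal that the authors made by dividing the read counts of each library by its own size factor. The table also gives the authors' genotype means, log2 fold changes and p-values, none of which were used. The submitters' processing notes name HISAT2 2.0.5, featureCounts 1.5.0-p3 and the human build hg18, whereas the identifiers are from mouse: 27164 of 27202 are in GENCODE M21 (GRCm38), and 97.3% of these have the same start and end. The coordinates of *Nfkb2* differ there, and coordinates are given as in the table. Libraries were made with a kit that does not mark strand, and how the counting treated shared reads is not given in the sources used here. The values of a library are whole multiples of the smallest one in it (largest deviation 3.44e-06 in cKO2), but the reads behind the smallest value are not stated, and no count model was fitted.

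Values were transformed to log2(value + 1), which understates changes of low genes, over 16246 genes with a mean of at least 10. limma 3.58.1 in R 4.3.3 (lmFit, eBayes with trend and robust) compared cKO with WT over the whole table; p-values were adjusted by the Benjamini-Hochberg method, and 0.05 was the threshold. The scripts were tested on simulated data. Ratios were compared by exact permutation tests. The κB consensus (a run of 10 bases) was searched in RefSeq windows. Figures were drawn with matplotlib 3.10.9.

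The 10 genes and all lists were chosen with earlier results of these data known. Genes named are the 10 genes, the 3 tested genes with the smallest unadjusted p in each of 7 pathway lists and the 3 profiles nearest to *Tnf*, *Ltb* and *Tnfaip3* among genes with a mean of at least 50. *Nedd4l*, *Cyld*, *Cxcl1*, *Cxcl2* and *Il1b* were named after their values were seen. Of 12 marker lists, those for plasma cells, dendritic cells, smooth muscle and enteric neurons are given in the closing section. Alternatives covered the pseudocount, the filter, quantile normalization, array weights, the replicate block, eBayes without trend and leaving out each library. The lists without each library and *Nfkb2* by its longer length were computed after the data had been seen.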

Additional observations from a re-analysis of the deposited data

How the results depend on the processing

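Of 140 recomputed fold changes of the 10 genes (14 alternatives each), 134 kept their direction and their side of the adjusted threshold. The number of the 10 genes at an unadjusted p under 0.05 was 2 in the main fit, where 1122 of 16246 genes were higher at that level. It was 1 under quantile normalization, under the replicate block and under eBayes without trend and robust (1011, 1204 and 1022 of all genes higher). With array weights it was 3 (2084 of all genes higher). When 1 library was left out it was 0 to 5 (4.91% to 8.94% of all genes higher). The number with separate groups was 0 to 7 on leaving out 1 library (29.1% to 37.6% of all genes). With array weights 1 of the 10 genes, *Tnfrsf1b*, passed the adjusted threshold, and *Ltb* was at -0.16. On leaving out 1 library the log2 fold change ran from -0.10 to 0.63 for *Ltb*, from -0.010 to 0.23 for *Nfkb2*, from -0.016 to 0.21 for *Nfkbiz* and from -0.037 to 0.25 for *Birc3*, and the log2 difference of the *Relb* to *Rela* ratio from -0.034 to 0.15. The cause was not tested.

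Over all genes, 0 passed the adjusted threshold. Without a filter there were 7 higher and 23 lower, with array weights 262 and 369, without cKO1 2 and 22, and without cKO2 70 and 52. Same-numbered libraries of the genotypes did not deviate together (r = -0.029, -0.090 and -0.056). With 3 libraries a group this cannot settle whether the numbers pair them. With the replicate block 0 genes passed. A count model (edgeR or DESeq2) was not run, so how it would change the calls is not known. With 3 libraries a group, the intervals of *Tnf* and *Ltb* leave changes of either direction possible.

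The sums over the other marker lists, in normalized counts, were 33367 to 45216 in cKO and 24389 to 46066 in WT libraries for plasma cells, 388 to 492 and 393 to 486 for dendritic cells, 4845 to 9072 and 4073 to 16589 for smooth muscle, and 27.6 to 70.0 and 42.9 to 114 for enteric neurons and glia.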
